A study of Mus musculus with 6 samples.

Results

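HOX genes, the homeobox transcription factors of the Hoxa, Hoxb, Hoxc and Hoxd clusters, were examined in differentiated brown adipocytes with a stable knock-down of aspartoacylase (Aspa). The genes were taken from a list of 38 cluster members, and a member was measured where a probe set of the array was annotated to that gene alone. Where several such probe sets existed, the one with the highest mean over all 6 arrays stood for the gene. This gave 36 of the 38 listed genes, among 22180 genes represented on the array in the same way: 9 of 10 in Hoxa, 10 of 10 in Hoxb, 9 of 9 in Hoxc and 8 of 9 in Hoxd. Hoxa11 and Hoxd4 lie only on probe sets annotated to more than 1 gene and have no value of their own here.

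The genes of each HOX cluster stand in a row on the chromosome, and their order matches the order in which they are used along the body axis of the embryo. Genes at the 3′ end of a cluster, with low paralog numbers, pattern the hindbrain and neck, and genes at the 5′ end, with high paralog numbers, pattern the lumbar, sacral and tail regions and the limbs. Cells of adult connective tissue and fat keep much of the HOX pattern of the place they came from, held in place by Polycomb and trithorax chromatin proteins. In mouse fat, Hoxc8, Hoxc9 and Hoxc10 are known as genes used more in white depots than in interscapular brown fat, and Hoxc8 is known to repress Cebpb, a regulator of brown adipogenesis.

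The siAspa group consisted of immortalized brown adipogenic cells (iBACs), a mouse cell line, that carried a lentiviral shRNA against Aspa, and the ntc group of the same line carried a non-targeting control construct. Both groups were selected with G418, brought to confluence, induced with IBMX, dexamethasone, insulin, triiodothyronine and indomethacin, kept on insulin and triiodothyronine, and harvested on day 7. Each group had 3 arrays from 3 passages of the cells, hybridised from 200 ng of total RNA, and the labels name a single shRNA construct. The comparison asked which transcripts differ when Aspa, the enzyme that splits N-acetylaspartate into acetate and aspartate, is reduced. Because the cells of a group are a single stably transduced line as far as the labels tell, the p-values measure the spread between passages, and an effect of the knock-down cannot be told apart from other differences between the 2 lines.

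Signals are given as RMA-normalized log2 values, and differences are siAspa minus ntc on that scale, with limma's moderated test and Benjamini-Hochberg adjustment over all 41345 probe sets. Array medians lay between 5.78 and 5.85, and 30 probe sets passed the adjusted threshold of 0.05 as lower (0.0726%) and 48 as higher (0.116%) with the knock-down. This balance depended on the fit, with 236 lower and 152 higher under a variance trend with robust priors, 329 lower and 251 higher among single-gene probe sets only, and 394 lower and 253 higher among probe sets above the median signal. Aspa itself read 7.02, 6.97 and 7.44 on the siAspa arrays and 9.07, 8.81 and 8.59 on the ntc arrays, 3.20-fold lower (adjusted p = 0.034). The brown adipocyte identity of the line was checked with 8 markers, of which 7 exceeded the background level described below in both groups and Dio2 did not. Ucp1, the uncoupling protein of brown fat, fell by 1.72 in siAspa (adjusted p = 0.034), and 6 of the 8 markers had an unadjusted p below 0.05 in the lower direction, where 6.17% of all genes did. The summed signal of these markers, on the log2 scale, was 11.64 to 11.93 on the siAspa arrays and 12.76 to 13.13 on the ntc arrays. Its part in the HOX differences was not tested. In a bulk sample, fewer cells of a type and less RNA per cell cannot be told apart.

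The HOX pattern of the control cells was described against an internal background, because the arrays have no absent call. The 1108 probe sets of olfactory receptor genes, which are not expected in fat cells, had a median of 3.68, a 95th percentile of 5.77 and a 99th percentile of 6.71 over the 6 arrays. Of the 36 HOX genes, 26 exceeded the 95th percentile on all 3 ntc arrays: 8 of 9 in Hoxa, 9 of 10 in Hoxb, 6 of 9 in Hoxc and 3 of 8 in Hoxd. By the mean over the 6 arrays, 28 of the 36 HOX genes exceeded it, and so did 13703 of all 22180 genes. It was also exceeded by 3 of 5 myogenic markers, so that passing this level does not by itself show that a gene is used. The stricter 99th percentile was exceeded by 16 genes on all 3 ntc arrays, which were Hoxa2 and Hoxa4 to Hoxa7, Hoxb5, Hoxb6, Hoxb7 and Hoxb9, Hoxc6, Hoxc8, Hoxc9, Hoxc10, Hoxc12 and Hoxc13, and Hoxd8. These genes have paralog numbers between 2 and 13, and most of them lie in the middle of their clusters. The signals of different probe sets are not amounts of RNA that can be ranked, since probes differ in their affinity.

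In Hoxa, Hoxa2 and Hoxa4 to Hoxa7 had means between 7.25 and 7.99 in the ntc cells, Hoxa3 lay between the 2 percentiles with a mean of 6.26, and Hoxa9, Hoxa10 and Hoxa13 had means between 5.74 and 5.98, near the lower one. In Hoxb, Hoxb1 alone did not exceed the 95th percentile on every ntc array, and Hoxb9, which takes part in patterning the thoracic skeleton, had the highest mean of the 36 (8.98). In Hoxc, the first genes of the cluster, Hoxc4 and Hoxc5, were at or near background with means of 5.8 and 5.59, and Hoxc6, Hoxc8, Hoxc9 and Hoxc10 lay between 7.18 and 8.40. Hoxc11 was near background in ntc cells, with 5.60, 5.91 and 5.61, while Hoxc12 and Hoxc13, beyond it in the cluster, exceeded the 99th percentile. The myogenic marker Myog had a mean of 6.71 in ntc cells, at that percentile, so that passing it does not by itself show that a gene is used. Hoxd was the least measured cluster: Hoxd8 had a mean of 7.63, and Hoxd1, Hoxd9, Hoxd11, Hoxd12 and Hoxd13 exceeded the 95th percentile on none of the ntc arrays. Hoxd12 and Hoxd13 are known for their part in building the digits. In siAspa cells, 24 genes exceeded the 95th percentile on all 3 arrays and 15 the 99th. Hoxa3 exceeded the 95th percentile on 1 of 3 siAspa arrays against 3 of 3 ntc arrays, Hoxd3 likewise on 1 against 3 with a difference of only −0.03, Hoxa10 on 0 against 3, and Hoxc11 on 3 against 1.

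**Figure D1:**
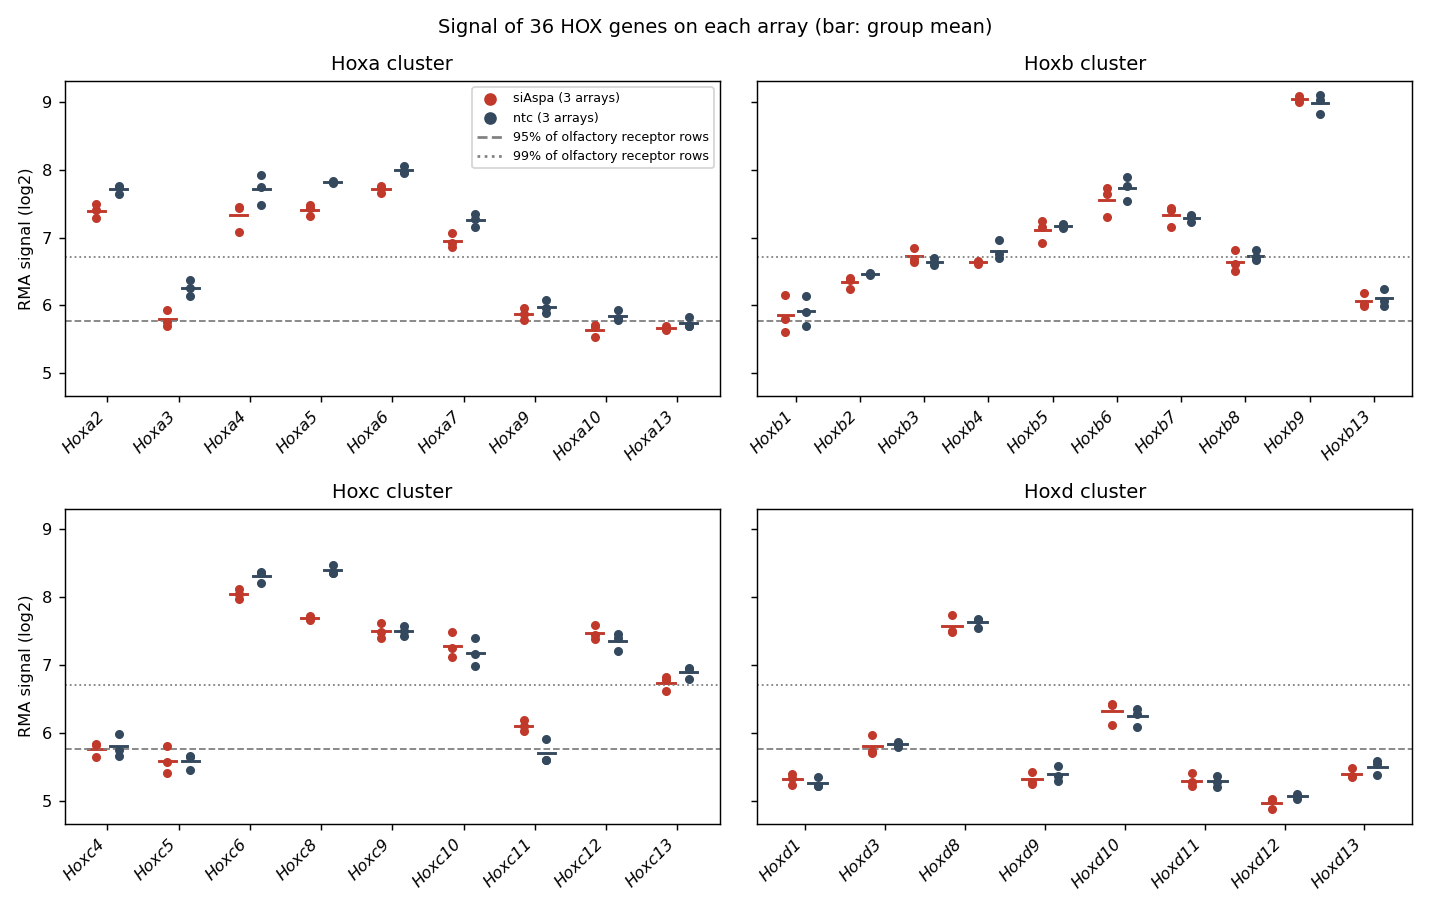
Log2 RMA signal of the 36 measured HOX genes on each of the 3 siAspa (left) and 3 ntc (right) arrays, with the 4 clusters as panels and the genes in paralog order. Bars are group means, and the dashed and dotted lines mark the olfactory receptor 95th percentile (5.77) and 99th percentile (6.71). Hoxb9 has the highest mean, 5 of the 8 Hoxd genes lie below the lower line, and Hoxc8 has the widest gap between the groups.

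Across the 36 genes, 25 differences were negative and 11 positive, with a median of −0.07 against 0.02 over all 22180 genes. A single member passed the adjusted test, Hoxc8, which was lower in siAspa, and no member passed it as higher. Among all genes 0.0992% were called lower and 0.189% higher at this threshold. At an unadjusted p below 0.05, 9 of 36 members (25%) were lower and 1 was higher, where the shares over all genes were 6.17% and 6.87%. The siAspa and ntc arrays did not overlap for 12 members (33.3%) that were lower and for 1 that was higher, where all genes gave 9.99% and 12.6%. Neighbouring genes of a cluster are not independent measurements, and several RefSeq transcripts overlap, among them those of Hoxa3 with Hoxa4, Hoxa5 and Hoxa6. Strand and position of the probes were not known here, so that RNA of overlapping genes cannot be told apart.

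The lower members were unevenly spread over the clusters. In Hoxa, 7 of 9 genes had an unadjusted p below 0.05 and no overlap between the groups, all in the lower direction, with a median of −0.31 over the 9. The medians were −0.06 in Hoxb, 0.01 in Hoxc and −0.04 in Hoxd, with 0, 2 and 0 lower genes at that unadjusted threshold. The difference between clusters was not tested. By position, the genes of paralog groups 1 to 3 had a median of −0.06, those of groups 4 to 8 a median of −0.17 and those of groups 9 to 13 a median of −0.04. Negative differences numbered 5 of 7, 12 of 14 and 8 of 15 in this order. An unadjusted p below 0.05 in the lower direction, which 6.17% of all genes had, was reached by 2 of 7, 6 of 14 and 1 of 15, and 1 gene of groups 9 to 13 reached it as higher. Apart from Hoxc6 and Hoxc8, these lower genes all belong to Hoxa, so that the counts by position largely repeat those by cluster.

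**Figure D2:**
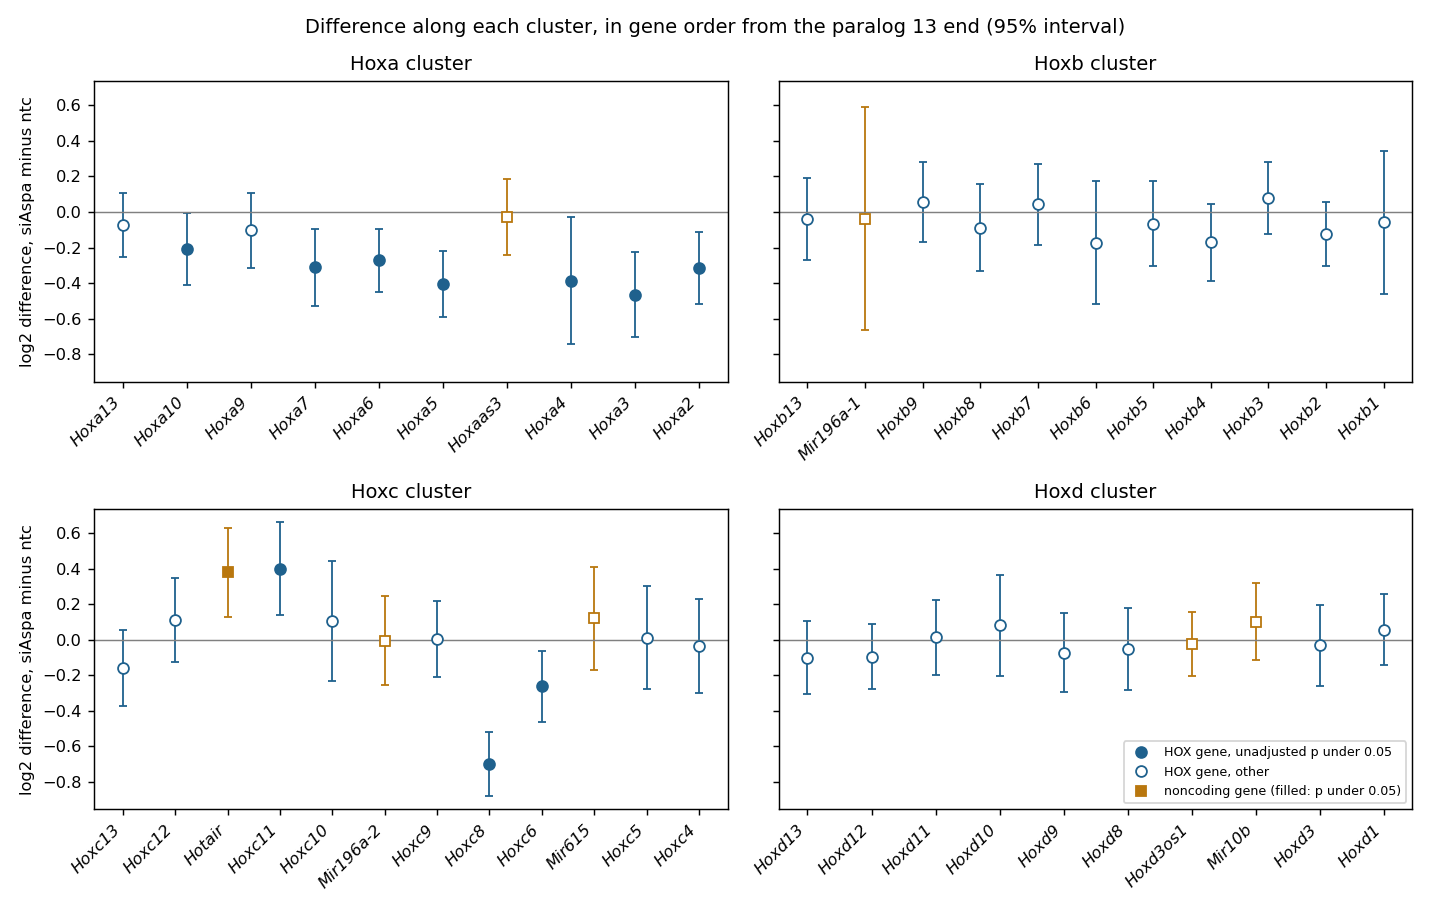
Difference between siAspa and ntc (log2, siAspa minus ntc) with 95% intervals from limma for each measured HOX gene (circles) and noncoding gene (squares), by cluster and in gene order from the paralog 13 end. Filled symbols have an unadjusted p below 0.05. All 9 measured Hoxa genes of the list lie below 0, Hoxc8 lies lowest at −0.70, and Hoxc11 and Hotair lie highest at 0.40 and 0.38. The noncoding gene Hoxaas3 within Hoxa lies at −0.03.

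Hoxc8 had the largest difference of the 36 genes in either direction. It read 7.73, 7.66 and 7.71 on the siAspa arrays and 8.35, 8.36 and 8.48 on the ntc arrays. The lowest ntc array was well above the highest siAspa array, and the siAspa arrays stood at 62.8%, 60.1% and 62.2% of the ntc mean on the linear scale. The difference was −0.70 with an SE of 0.08 (95% interval −0.88 to −0.52, adjusted p = 0.037 by limma with Benjamini-Hochberg adjustment). This call is close to the threshold: leaving out any 1 of the 6 arrays kept the difference between −0.72 and −0.66 but gave an adjusted p of 0.117 to 0.198.

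The genes on either side of Hoxc8 differed less. Hoxc6, active in the embryonic thorax, read 8.12, 8.05 and 7.98 on the siAspa arrays and 8.37, 8.36 and 8.21 on the ntc arrays. The groups did not overlap, but the difference of −0.26 (SE 0.08) did not pass the adjusted test (adjusted p = 0.296). Hoxc9 read 7.49, 7.63 and 7.40 in siAspa and 7.43, 7.57 and 7.50 in ntc, which leaves a difference of 0.01 with a 95% interval from −0.21 to 0.22. Hoxc10, known in mice to restrain browning of white fat, had 7.12, 7.26 and 7.50 in siAspa and 6.99, 7.16 and 7.41 in ntc, with an interval of −0.23 to 0.44 around 0.11. Of the 3 HOX genes known as white-depot genes, Hoxc8 alone passed the test. Each interval of the others excludes a difference as low as that of Hoxc8, but whether the genes differ from each other in their response was not tested.

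Further towards the 5′ end, Hoxc11, which acts with its paralogs in the sacral region and limbs, read higher in siAspa. It had 6.10, 6.04 and 6.19 on the siAspa arrays and 5.60, 5.91 and 5.61 on the ntc arrays. The difference of 0.40 (SE 0.11, 95% interval 0.14 to 0.66) did not pass the adjusted test (adjusted p = 0.229), and the siAspa arrays were all above the ntc arrays. The ntc mean of 5.71 lay under the olfactory 95th percentile, so that the level in ntc cells, and with it the size of the difference, is not well determined. It was the only member of the 36 higher at an unadjusted p below 0.05. Hoxc12 (7.44, 7.59 and 7.38 in siAspa against 7.46, 7.21 and 7.41 in ntc) overlapped between the groups. Hoxc13, needed for hair and nails, had 6.82, 6.78 and 6.62 in siAspa and 6.80, 6.97 and 6.94 in ntc, a difference of −0.16 (adjusted p = 0.563) with overlap. Hoxc4 and Hoxc5, both near background, differed by −0.04 and 0.01.

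Hotair, a long noncoding RNA transcribed from the Hoxc cluster, lies between Hoxc12 and Hoxc11 in the RefSeq gene order. It had 6.54, 6.36 and 6.20 on the siAspa arrays and 6.01, 6.04 and 5.91 on the ntc arrays. All siAspa arrays were above all ntc arrays, as for its neighbour Hoxc11, and the difference was 0.38 (SE 0.10, 95% interval 0.13 to 0.63, adjusted p = 0.236). Both differences missed the adjusted threshold, and both signals lay below the 99th percentile of the olfactory receptor probe sets.

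In the Hoxa cluster, the siAspa arrays lay entirely below the ntc arrays for 7 of 9 genes, without any of them passing the adjusted test. Hoxa5, which patterns the neck and thoracic skeleton and the lung, had the smallest p of the cluster. It read 7.48, 7.31 and 7.44 on the siAspa arrays and 7.82, 7.80 and 7.83 on the ntc arrays. The ntc arrays were nearly identical and all siAspa arrays lay below them, with a difference of −0.40 (SE 0.08, 95% interval −0.59 to −0.22, adjusted p = 0.119). Hoxa3, needed for the thymus and parathyroid glands, read 5.94, 5.70 and 5.75 in siAspa and 6.15, 6.26 and 6.38 in ntc. Its difference of −0.46 (SE 0.10, 95% interval −0.70 to −0.23, adjusted p = 0.146) was the widest in the cluster, close to the background level. A brighter probe set, annotated to both Hoxa3 and 5730446D14Rik, had means of 7.23 in siAspa and 7.40 in ntc. Its groups overlapped, with a smaller difference of −0.17 (adjusted p = 0.563). With the fit and the adjustment restricted to single-gene probe sets, Hoxa5 and Hoxa3 passed as well (adjusted p = 0.033 and 0.043), which made 3 called members with Hoxc8.

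The other Hoxa genes at the 3′ end and in the middle followed the same direction with smaller differences. Hoxa2, which shapes the hindbrain and the skeleton of the second pharyngeal arch, had 7.49, 7.41 and 7.29 in siAspa and 7.76, 7.64 and 7.74 in ntc (−0.32, adjusted p = 0.224). Hoxa4 had 7.45, 7.09 and 7.44 in siAspa against 7.48, 7.75 and 7.92 in ntc (−0.39, adjusted p = 0.391). The groups of Hoxa4 were separated by the narrowest gap, and its SE of 0.15 was the widest of the cluster.

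Hoxa6 had 7.73, 7.76 and 7.66 in siAspa and 7.95, 7.96 and 8.05 in ntc (−0.27, adjusted p = 0.234), and Hoxa7 had 7.06, 6.85 and 6.91 in siAspa and 7.34, 7.15 and 7.27 in ntc (−0.31, adjusted p = 0.260). In both, every siAspa array lay below every ntc array. Both genes pattern the neck and upper thoracic vertebrae. Another probe set, annotated to both Hoxa7 and Mira, read 6.60, 6.66 and 6.44 in siAspa and 6.60, 6.91 and 6.79 in ntc. There the groups overlapped, with a difference of −0.20 (adjusted p = 0.557). At the 5′ end, Hoxa10, which patterns the lumbar region and the uterus, differed by −0.21 without overlap (adjusted p = 0.419), Hoxa9 by −0.10 and Hoxa13 by −0.07, both with overlapping groups. Over the 9 genes, the difference ran closer to 0 with rising paralog number (Pearson's r = 0.86 and Spearman's rho = 0.85, given as a description because the genes share arrays and neighbours, and because the 5′ genes also lay near background). In the other clusters r was 0.21 over 10 Hoxb genes, 0.27 over 9 Hoxc genes and −0.45 over 8 Hoxd genes.

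**Figure D3:**
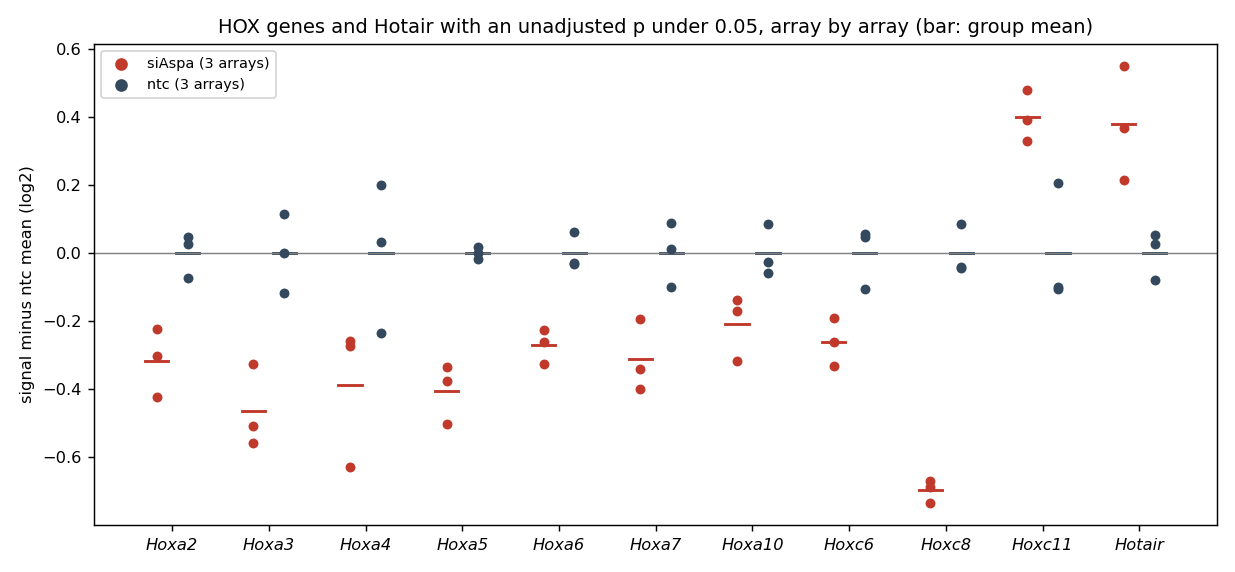
Log2 signal minus the gene's ntc mean on each of the 3 siAspa and 3 ntc arrays, for Hotair and the 10 HOX genes with an unadjusted p below 0.05, with bars at the group means. The arrays of the groups overlap for none of these genes, the siAspa arrays are higher for Hoxc11 and Hotair and lower for the others, and the difference is largest for Hoxc8.

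For 2 genes of this cluster, the bases upstream of the start were drawn from RefSeq. Both differed in the same direction in the arrays, while their windows hold different numbers of the motifs named next. HOX proteins bind short sites around TAAT, and together with their PBX partners longer sites of the form TGATNNAT. The 250 bases before the transcription start are printed 5′ to 3′ on the gene's strand (assembly GRCm38.p6, minus strand), with matches to either motif, on either strand, in capitals. Hoxa2 is at chr6:52164832-52165081 and Hoxa5 at chr6:52204588-52204837.
Hoxa2: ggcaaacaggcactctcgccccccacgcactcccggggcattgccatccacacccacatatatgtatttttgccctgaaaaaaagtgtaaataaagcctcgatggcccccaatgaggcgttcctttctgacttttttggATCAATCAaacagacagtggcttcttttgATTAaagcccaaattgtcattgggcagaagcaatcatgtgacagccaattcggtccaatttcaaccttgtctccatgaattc
Hoxa5: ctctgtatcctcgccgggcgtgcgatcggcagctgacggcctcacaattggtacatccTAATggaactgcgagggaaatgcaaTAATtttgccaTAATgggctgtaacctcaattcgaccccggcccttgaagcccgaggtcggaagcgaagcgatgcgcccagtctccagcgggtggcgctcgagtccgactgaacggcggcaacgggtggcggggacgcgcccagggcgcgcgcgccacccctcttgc

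The Hoxa2 window holds 1 TGATNNAT match, read as ATCAATCA on the printed strand and 103 bases before the start, and 1 TAAT match. The Hoxa5 window holds 3 TAAT matches and no TGATNNAT match, and it has 28 CG dinucleotides where the Hoxa2 window has 6. RefSeq windows were given for 22 HOX genes, 24 windows in all. Of these, 4 (16.7%) hold TGATNNAT against 7.68% of all 32851 windows, and 18 (75%) hold TAAT against 54.9%. The windows with TGATNNAT belong to Hoxa2, Hoxb1, Hoxb8 and Hoxd11. Their array differences were between −0.32 in Hoxa2 and 0.01 in Hoxd11. The HOX windows held a median of 12.5 CG dinucleotides, with a range from 2 to 35, against 6.0 over all windows. A match is a run of letters and not a binding site that was measured.

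In Hoxb, none of the 10 probe sets that stood for the genes had an unadjusted p below 0.05, while a second probe set of Hoxb5 did. The differences lay between −0.17 and 0.08. Hoxb4, which acts in the neck region and in blood stem cells, read 6.64, 6.65 and 6.62 on the siAspa arrays and 6.76, 6.96 and 6.70 on the ntc arrays, with every siAspa array below every ntc array (−0.17, adjusted p = 0.535). Hoxb2, a hindbrain gene, had 6.37, 6.25 and 6.40 in siAspa and 6.46, 6.48 and 6.44 in ntc, again without overlap (−0.12, adjusted p = 0.604). Hoxb6 overlapped, with 7.73, 7.64 and 7.30 in siAspa and 7.89, 7.76 and 7.54 in ntc, and its 95% interval of −0.52 to 0.17 was wide enough to include the Hoxa median. The intervals of Hoxb1 (−0.46 to 0.34), Hoxb4 (−0.39 to 0.04) and Hoxb8 (−0.33 to 0.16) included that median too.

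Hoxb9, whose probe set gave the highest signal, had 9.08, 9.03 and 9.0 on the siAspa arrays and 9.03, 9.09 and 8.81 on the ntc arrays, so that the groups overlapped. For Hoxb5 the chosen probe set differed by −0.07 (adjusted p = 0.865), and a second probe set of the gene gave 7.06, 6.91 and 6.75 in siAspa and 7.20, 7.16 and 7.24 in ntc, a difference of −0.29 with an unadjusted p below 0.05 (adjusted p = 0.313). The 2 probe sets of Hoxb5 disagree in that only the second separated the groups, and neither passed the adjusted test.

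In Hoxd, the differences of the 8 measured genes lay between −0.10 and 0.08, and none had an unadjusted p below 0.05. Hoxd8, the gene of this cluster furthest above background, read 7.48, 7.74 and 7.51 on the siAspa arrays and 7.54, 7.66 and 7.68 on the ntc arrays. The groups overlapped, and the difference of −0.05 had a 95% interval of −0.28 to 0.18. Hoxd3 and Hoxd10, above background on all ntc arrays as well, differed by −0.03 and 0.08. Hoxd12 was lower on all siAspa arrays, with a difference of −0.09, but lay below background in both groups. The interval of Hoxd8 still includes the −0.26 of Hoxc6, so that a difference of that size is not excluded.

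The clusters also hold microRNA genes, which are known to bind HOX transcripts. In the mouse, miR-196 targets Hoxb8 and other middle HOX genes, Hoxc8 among them. The mature sequences (RefSeq, GRCm38.p6) are shown 5′ to 3′ because they fall into 2 families by their seed, bases 2 to 8, in capitals.
mmu-miR-196a-5p: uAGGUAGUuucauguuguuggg
mmu-miR-196b-5p: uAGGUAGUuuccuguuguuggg
mmu-miR-10a-5p: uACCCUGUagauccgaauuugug
mmu-miR-10b-5p: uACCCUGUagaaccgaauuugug

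In the genome, miR-196a comes from Mir196a-1 at chr11:96265187-96265208 in Hoxb and Mir196a-2 at chr15:102973365-102973386 in Hoxc, and miR-196b from chr6:52230129-52230150 in Hoxa. The miR-10a bases lie at chr11:96317186-96317208 in Hoxb and those of miR-10b at chr2:74726074-74726096 in Hoxd. The miR-196 genes share the seed AGGUAGU and the miR-10 genes the seed ACCCUGU. The array reads precursor or host RNA and not the mature microRNAs. Mir196a-1 in Hoxb and Mir196a-2 in Hoxc differed by −0.04 and 0.00, and Mir10b in Hoxd by 0.10, all without passing the test, and the signals of Mir196a-2 and Mir10b lay below the olfactory 95th percentile, where a lack of difference shows little. The 95% interval of Mir196a-1, −0.66 to 0.59, was too wide to show a lack of difference either. Mir196b was not analysed here, and Mir10a had no probe set of its own. A probe set annotated to both Mir10a and Hoxb4 differed by −0.27 (adjusted p = 0.511), with means below the olfactory 95th percentile in both groups. Of 18 noncoding genes listed for the clusters, 7 were measured and 4 lay above the olfactory 95th percentile, with a median of 0.00 over the 7 and no called gene. Hotair alone had an unadjusted p below 0.05.

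The partners of HOX proteins were measured next. The TALE homeodomain proteins of the Pbx, Meis and Pknox families bind DNA together with HOX proteins, and 8 of 9 listed genes had a probe set, with a median of −0.02, none called, and Pbx3 alone at an unadjusted p below 0.05. Pbx3 had 8.42, 8.47 and 8.43 on the siAspa arrays and 7.93, 7.92 and 8.13 on the ntc arrays. The groups were clearly apart, and the difference of 0.45 (SE 0.09) was at adjusted p = 0.117. Pknox1, Pbx2 and Pknox2 differed by −0.14, 0.10 and 0.10. Meis1 and Meis2 differed by −0.01 and −0.03.

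Chromatin regulators of the clusters showed no called gene. Of 30 listed Polycomb genes 27 were measured, with a median of 0.03, 1 lower and 1 higher at an unadjusted p below 0.05. Jarid2, which helps to bring the Polycomb complex PRC2 to its targets, had 8.33, 8.47 and 8.59 in siAspa and 8.94, 8.81 and 8.91 in ntc, without overlap (−0.42, adjusted p = 0.153). Aebp2, another PRC2 subunit, differed by 0.17 (adjusted p = 0.413). Of 11 genes on the trithorax and H3K27 demethylase list, 10 were measured with a median of 0.02, and 1 was higher at the unadjusted threshold. This gene, Psip1, a chromatin reader that tethers Mll complexes, differed by 0.32 (adjusted p = 0.174).

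Signals that set HOX expression in the embryo were also listed, and 8 of 9 had a probe set. None was called, with a median of 0.12, 1 lower and 2 higher at that unadjusted threshold. Gdf11, a secreted factor that activates posterior HOX genes, differed by 0.37 (adjusted p = 0.259), and Egr2, which activates hindbrain HOX genes, by −0.36 (adjusted p = 0.240). Cdx4 lay below the olfactory level.

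Of 19 positional factors outside the clusters 17 were measured, with a median of 0.02, 2 lower and 3 higher at an unadjusted p below 0.05, and none called. Lhx8, a LIM homeobox gene known as a marker of brown fat, read 7.31, 7.41 and 7.67 on the siAspa arrays and 6.77, 6.92 and 6.87 on the ntc arrays. It was higher on all siAspa arrays, by 0.61, but did not pass the adjusted test (adjusted p = 0.108). Tbx18, a T-box gene of somite patterning, differed by −0.46 (adjusted p = 0.185), Shox2, a limb homeobox gene, by 0.36 (adjusted p = 0.132), and Zic1, another marker of brown fat, by −0.24 (adjusted p = 0.544).

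The 5 nearest genes on each side of each cluster were taken from RefSeq to see whether the neighbourhood moved with it. Of these 40 genes 38 were measured, with a median of 0.01, 2 lower and 3 higher at an unadjusted p below 0.05, and none called. Beside Hoxa, where the cluster median was −0.31, the flanking median was −0.01, with Hibadh, a mitochondrial enzyme of valine breakdown, at −0.34 (adjusted p = 0.251) and Cbx3, a heterochromatin protein, at 0.31 (adjusted p = 0.198). The flanking medians were 0.09 beside Hoxb, −0.11 beside Hoxc and 0.02 beside Hoxd. Probe sets were matched to these genes by annotation alone. The identifiers of those chosen for Cbx3 and for Atp5g2 beside Hoxc stand apart from their neighbours' identifiers, so that they may not read these loci. Mtx2, a mitochondrial outer membrane protein beside Hoxd, had the largest difference of the flanking genes above background, −0.49 (adjusted p = 0.125).

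**Figure D4:**
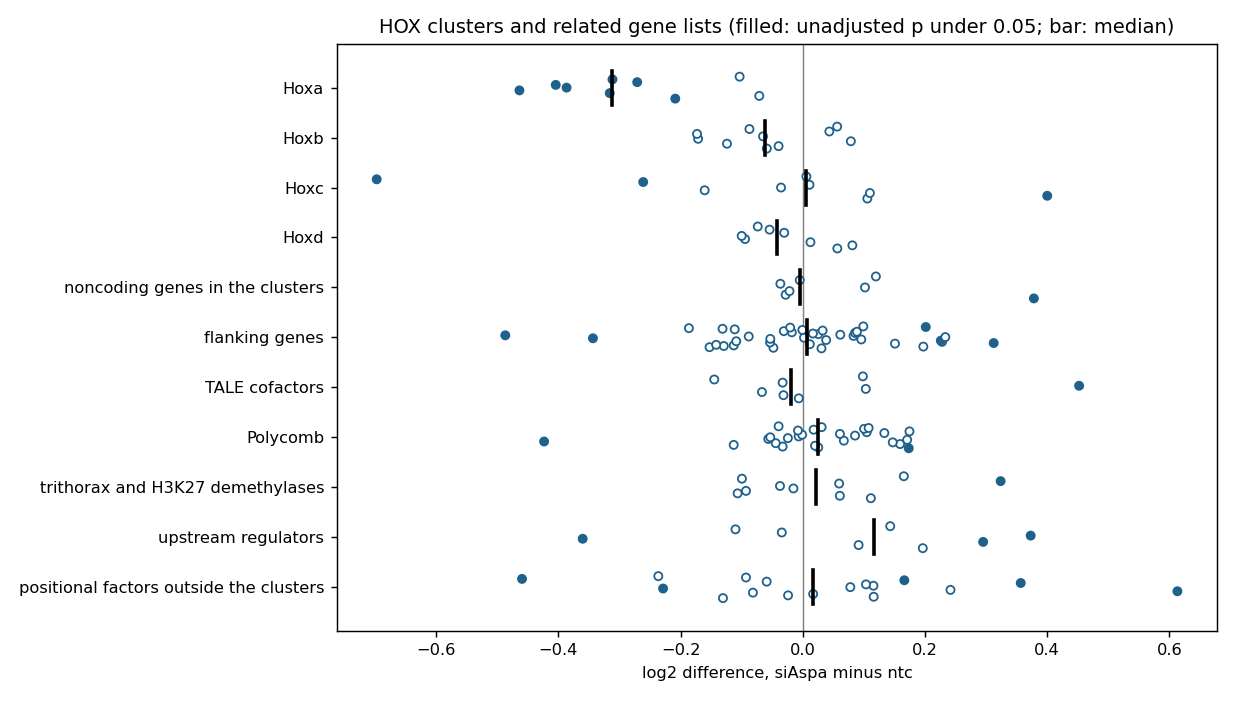
Difference between siAspa and ntc (log2) for single genes of the HOX clusters, the noncoding and flanking genes, the cofactors, the chromatin and upstream regulators and the positional factors, with a bar at each list's median and filled points for an unadjusted p below 0.05. The Hoxa median is −0.31, and the medians of the lists other than the clusters lie between −0.02 and 0.12.

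Markers of cell states were measured beside the HOX genes. The general adipocyte markers summed to 14.25 to 14.44 on the siAspa arrays and 14.50 to 14.55 on the ntc arrays (log2), with 3 of 6 lower at an unadjusted p below 0.05. The preadipocyte and fibroblast markers, 7 of 8 measured, overlapped with 12.85 to 12.94 in siAspa and 12.78 to 12.95 in ntc. The myogenic markers overlapped as well (8.27 to 8.52 in siAspa and 8.22 to 8.48 in ntc). The macrophage markers had 8.43 to 8.54 in siAspa and 8.09 to 8.34 in ntc, with the means of Adgre1, Ptprc and Lyz2 below the olfactory level in both groups. Of their differences 3 were positive and 2 negative, with Cd68 at 0.34 (adjusted p = 0.353) and Csf1r and Adgre1 both at −0.03. The endothelial markers had 8.0 to 8.16 in siAspa and 7.88 to 7.94 in ntc, with 4 of 5 below the olfactory level by their mean over the 6 arrays, Pecam1, Vwf and Tek among them. Of their differences 4 were positive and 1 negative, and the largest was that of Tek at 0.46 (adjusted p = 0.295). The white and beige fat markers overlapped with 9.73 to 9.87 in siAspa and 9.75 to 9.90 in ntc, with 3 of 5 differences negative and 2 positive. Of these Tmem26, a beige marker, rose by 0.89 in siAspa (7.07, 7.13 and 7.01 in siAspa against 6.25, 6.17 and 6.14 in ntc, adjusted p = 0.026). Lep, the hormone leptin and a white fat marker, differed by −0.56 without overlap (8.08, 8.07 and 7.99 in siAspa against 8.63, 8.68 and 8.52 in ntc, adjusted p = 0.067), Tbx1 by −0.20 without overlap (adjusted p = 0.524), Tcf21 by −0.09 and Tnfrsf9 by 0.35. The adipocyte, macrophage and endothelial sums thus differed between the groups without overlap, although 3 of 5 macrophage and 4 of 5 endothelial genes lay below the olfactory level. The part of these sums in the HOX differences was not tested.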

How the data were processed

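Total RNA of 3 siAspa and 3 ntc cultures was hybridised to Affymetrix Mouse Gene 2.0 ST arrays. The deposited values are log2 signals, which the authors made by RMA, named in the submitters' processing notes. The paper names CarmaWeb as the software. RMA subtracts background, forces all arrays to 1 distribution and condenses each probe set to a single value, so that a change common to all genes would not be seen. The version was not given in the sources used here, and scanner intensities were not analysed here. Precision is limited by the number of arrays, 3 per group.

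Of 41345 probe sets, 23521 were annotated to a single gene, 1820 to several and 16004 to none. Symbols were updated by gene identifier through a RefSeq table (GRCm38.p6, 23328 matched). The highest mean over the 6 arrays chose the probe set of a gene. All rows were fitted in limma 3.58.1 (R 4.3.3) with lmFit and eBayes, two-sided, without a block, after the paper's methods, and adjusted by Benjamini-Hochberg at a threshold of 0.05. By its moderated t-test and the same correction, the paper reported more called genes, with more lower than higher. The fit used here called fewer probe sets as lower than as higher, and the reason for this difference was not tested. A permutation test of 3 against 3 cannot go below 0.1 and was not used. Confidence intervals are 95%.

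All HOX genes could be named. Per-array values are given for each called member and for up to 12 others above the olfactory level with the largest differences, and, as illustrations chosen after their values were seen, for Hoxb9, Hoxc9, Hoxc10, Hoxc12 and Hoxd8. From other lists, called genes and up to 4 with the largest differences above that level are named, with a few more to complete a gene family. The members and lists were chosen with earlier results of these data known. In data simulated on 41345 rows for this comparison, the fit recovered 34% of genes changed 1.5-fold, 64% at 2-fold, 88% at 3-fold and 90% at 4-fold, with 7 false calls.

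The alternatives were a replicate block, a variance trend with robust priors, array weights, other normalizations, filters on rows, a 1.5-fold threshold, the mean over a gene's probe sets, other background levels, and leaving out each array.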

Additional observations from a re-analysis of the deposited data

How the results depend on the processing

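Hoxc8 was the single called HOX gene (1 lower, 0 higher) at the values as deposited, where 30 probe sets were lower and 48 higher. Its difference kept its sign in all 14 alternatives that gave it a value and was called in 7 of them. With the replicate number of the labels as a block, 0 HOX genes and 0 probe sets in either direction passed in limma, and an unadjusted p below 0.05 was reached by 8 HOX genes as lower and by 1 as higher. Over all probe sets, same-numbered siAspa and ntc arrays deviated from their group means with correlations of 0.0024, 0.0196 and 0.0026. Not every array correlated best with its own number. Whether the numbers pair the arrays cannot be told from this, since a pairing that touches few genes would barely move such a correlation. With each array left out in turn, 0 HOX genes, 0 to 1 lower and 0 to 1 higher probe sets passed, with fewer arrays in each fit, and 6 to 8 HOX genes were lower at an unadjusted p below 0.05. The shares of all genes at that unadjusted threshold are not given for the block or these fits, so that the HOX counts cannot be set against them. A variance trend with robust priors gave 236 lower and 152 higher probe sets. Fitting single-gene probe sets only gave 329 lower and 251 higher with 3 HOX genes, and fitting probe sets above the median signal gave 394 lower and 253 higher with 3 HOX genes, Hoxc8, Hoxa3 and Hoxa5 in both. The cause was not tested. By the stricter olfactory percentile 16 HOX genes lay above background on all ntc arrays in place of 26. The Hoxa median stayed between −0.36 and −0.26 when an array was left out. The sign turned in 16 values of 10 genes, none with an unadjusted p below 0.05 and each only when 1 array was left out, over ranges of −0.206 to 0.0627 for Hoxb1, −0.133 to 0.0265 for Hoxb5, −0.00368 to 0.129 for Hoxb7, −0.0261 to 0.113 for Hoxb9, −0.0955 to 0.0312 for Hoxb13, −0.104 to 0.0587 for Hoxc4, −0.0947 to 0.103 for Hoxc5, −0.0545 to 0.0596 for Hoxc9, −0.116 to 0.0189 for Hoxd3 and −0.0432 to 0.055 for Hoxd11. The arrays limit what can be seen near background, where 10 of the 36 genes did not exceed the olfactory level on all ntc arrays.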
